A study of Mus musculus with 23 samples.

Results

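Mural cells wrap the vessels of the brain, and 10 genes by which they are recognised were followed through hippocampal RNA sequencing of mice with and without the metabolic gene Acss2. The genes were Rgs5, Acta2, Pdgfrb, Kcnj8, Abcc9, Vtn, Myl9, Tagln, Cspg4 and Cald1. They were taken by symbol from a list of known mural cell genes, drawn up with earlier results of these data known, and the rule itself used no measured value. The list holds pericyte genes (Rgs5, Pdgfrb, Kcnj8, Abcc9, Vtn, Cspg4) and genes of the smooth muscle contractile apparatus (Acta2, Myl9, Tagln, Cald1). All 10 had a row in both count tables, of 24985 symbols per table, and all 10 passed the filter on low counts in both experiments.

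The mice were C57BL6/J. The KO mice carried a constitutive deletion of exons 3-7 of Acss2 that was made in single-cell embryos, so the loss is confined to no cell type. Het mice kept 1 intact copy and WT mice both. In the first experiment, whole hippocampi were dissected freehand from WT, Het and KO mice taken from the home cage, with 2 libraries per genotype in 1 batch, labelled B0. The second experiment used sections of dorsal hippocampus from WT and KO mice. Some were killed straight from the home cage (5 WT and 5 KO libraries), and the others 30 min after a contextual conditioning session with 1 shock (3 WT and 4 KO libraries, here called fear). Home cage was the only reference condition, so the effects of handling, a new context and the shock cannot be told apart. The labels give no animal for a library, so p-values measure the spread between these samples.

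The dorsal libraries carry 3 batch labels, B1, B2 and B3, with no statement of what a batch was. B1 held WT home cage replicates 1 and 2, all 3 WT fear libraries and KO fear replicates 1 and 2. B2 held WT home cage replicates 3 to 5 and KO home cage replicates 1 to 3. B3 held KO home cage replicates 4 and 5 and KO fear replicates 3 and 4. Totals were 18814460 to 27293661 counts per whole hippocampus library, 5362773 to 9109104 in B1, 18346424 to 23412644 in B2 and 14054430 to 19136156 in B3. The WT fear libraries therefore stood among the shallowest, and the precision of the weaker genes was set by them. Values below are CPM, the counts of a gene scaled to a common library size with edgeR's TMM factors.

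Mural cells come as pericytes, which sit on capillaries, and as smooth muscle cells, which ring arterioles and, more thinly, venules. Endothelial cells recruit both by releasing platelet-derived growth factor B, which is sensed by the receptor that Pdgfrb encodes. Smooth muscle cells contract when myosin light chain kinase phosphorylates the myosin regulatory light chain, and their contractile genes are switched on by serum response factor with myocardin at DNA elements called CArG boxes. Brain pericytes express a potassium channel opened when ATP is low, built from the subunits that Kcnj8 and Abcc9 encode. RNA from bulk tissue was measured. Fewer mural cells, less RNA per mural cell and reads of these genes from other cells therefore cannot be told apart.

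Per kilobase of exon, the scale on which genes can be compared with each other, the list spanned a wide range in WT whole hippocampus. Vtn, the secreted matrix protein vitronectin, was highest at 38.01 ± 2.61 CPM per kb (SD, n = 2). Rgs5, a brake on G protein signalling that marks pericytes, followed at 25.4 ± 0.135 CPM per kb (SD, n = 2). Myl9, the myosin regulatory light chain, stood at 11.8 ± 0.973 CPM per kb (SD, n = 2) and Acta2, smooth muscle alpha actin, at 8.77 ± 1.39 CPM per kb (SD, n = 2). Below them came Pdgfrb at 6.03 ± 0.0128 CPM per kb (SD, n = 2), Tagln, an actin-binding protein of smooth muscle, at 5.27 ± 0.874 CPM per kb (SD, n = 2) and Cald1, the actin-binding protein caldesmon, at 4.60 ± 0.0363 CPM per kb (SD, n = 2). Cspg4, the proteoglycan NG2 of pericytes and oligodendrocyte precursors, was at 2.16 ± 0.173 CPM per kb (SD, n = 2). Kcnj8, the pore of the potassium channel, was at 1.86 ± 0.0339 CPM per kb (SD, n = 2), and Abcc9, its regulatory subunit, was lowest at 1.32 ± 0.0688 CPM per kb (SD, n = 2). Tagln could not be separated from either neighbour in this order within 1 SD, and the other neighbours were farther apart than their SDs.

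In WT dorsal hippocampus from the home cage, Vtn, Rgs5 and Myl9 kept the first 3 places per kilobase, at 16.9 ± 1.61 CPM per kb (SD, n = 5), 12.3 ± 2.7 CPM per kb (SD, n = 5) and 5.62 ± 1 CPM per kb (SD, n = 5). Cald1, Pdgfrb and Acta2 came next at 3.77 ± 0.658 CPM per kb (SD, n = 5), 3.25 ± 0.395 CPM per kb (SD, n = 5) and 2.94 ± 0.806 CPM per kb (SD, n = 5), and each overlapped its neighbour within 1 SD. Tagln, Cspg4 and Kcnj8 likewise overlapped in turn, at 1.28 ± 0.226 CPM per kb (SD, n = 5), 1.17 ± 0.148 CPM per kb (SD, n = 5) and 1.13 ± 0.241 CPM per kb (SD, n = 5). Abcc9 was again lowest at 0.59 ± 0.0821 CPM per kb (SD, n = 5). In the WT fear group Acta2 took the last place, rank 10, at 0.296 ± 0.0909 CPM per kb (SD, n = 3), from rank 6 in the WT home cage group.

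**Figure D1:**
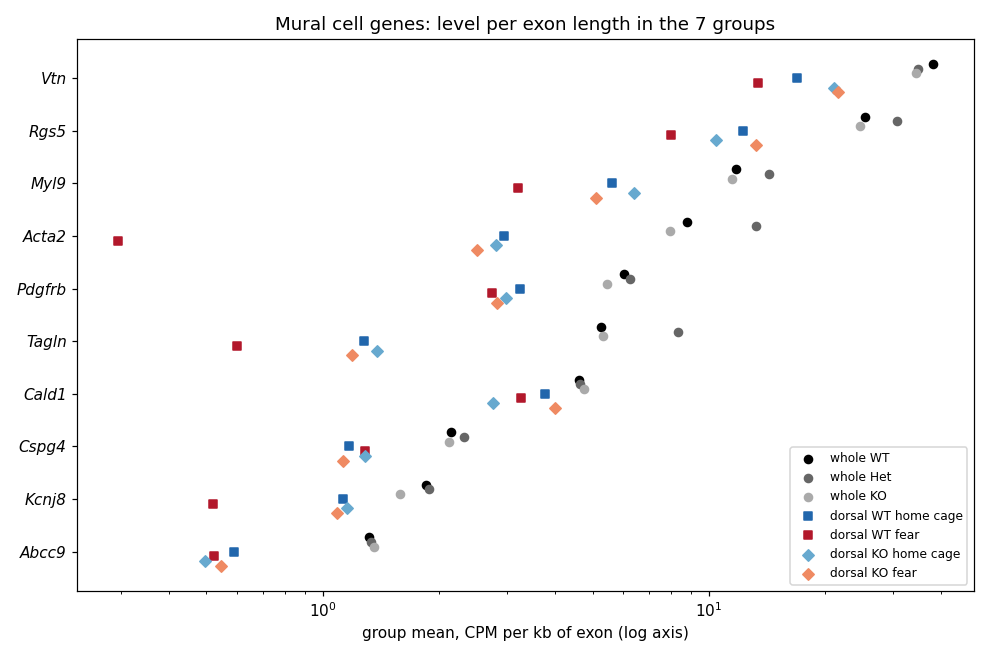
Group mean level of each mural cell gene in CPM per kilobase of exon on a log axis, 1 symbol per group, genes ordered by whole WT. Acta2 in the dorsal WT fear group stands apart to the left at 0.296, while the other 3 dorsal groups of Acta2 lie between 2.51 and 2.94.

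The members lay higher in the whole hippocampus table than in the dorsal table. The ratio of the WT whole mean to the WT dorsal home cage mean had a median of 2.08 over the 10 genes and ran from 1.22 for Cald1 to 4.11 for Tagln. Over 13571 genes above 1 CPM in both, the median ratio was 1.04, and 5.82% of genes exceeded 2. Between the KO groups the members' median ratio was 1.81, with 1.06 over 13515 genes. Other pericyte genes had a median ratio of 1.94 in WT (16 genes) and other smooth muscle genes 1.08 (12 genes), which is near that of all genes, and in KO these were 1.77 and 1.17. Endothelial markers had a median ratio of 2.5 in WT, markers of fibroblasts and meninges 3.79, and neuron markers 0.931. The 2 tables were prepared and scaled separately, and the tissue was dissected in different ways, so no test was made and these sources cannot be told apart.

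**Figure D2:**
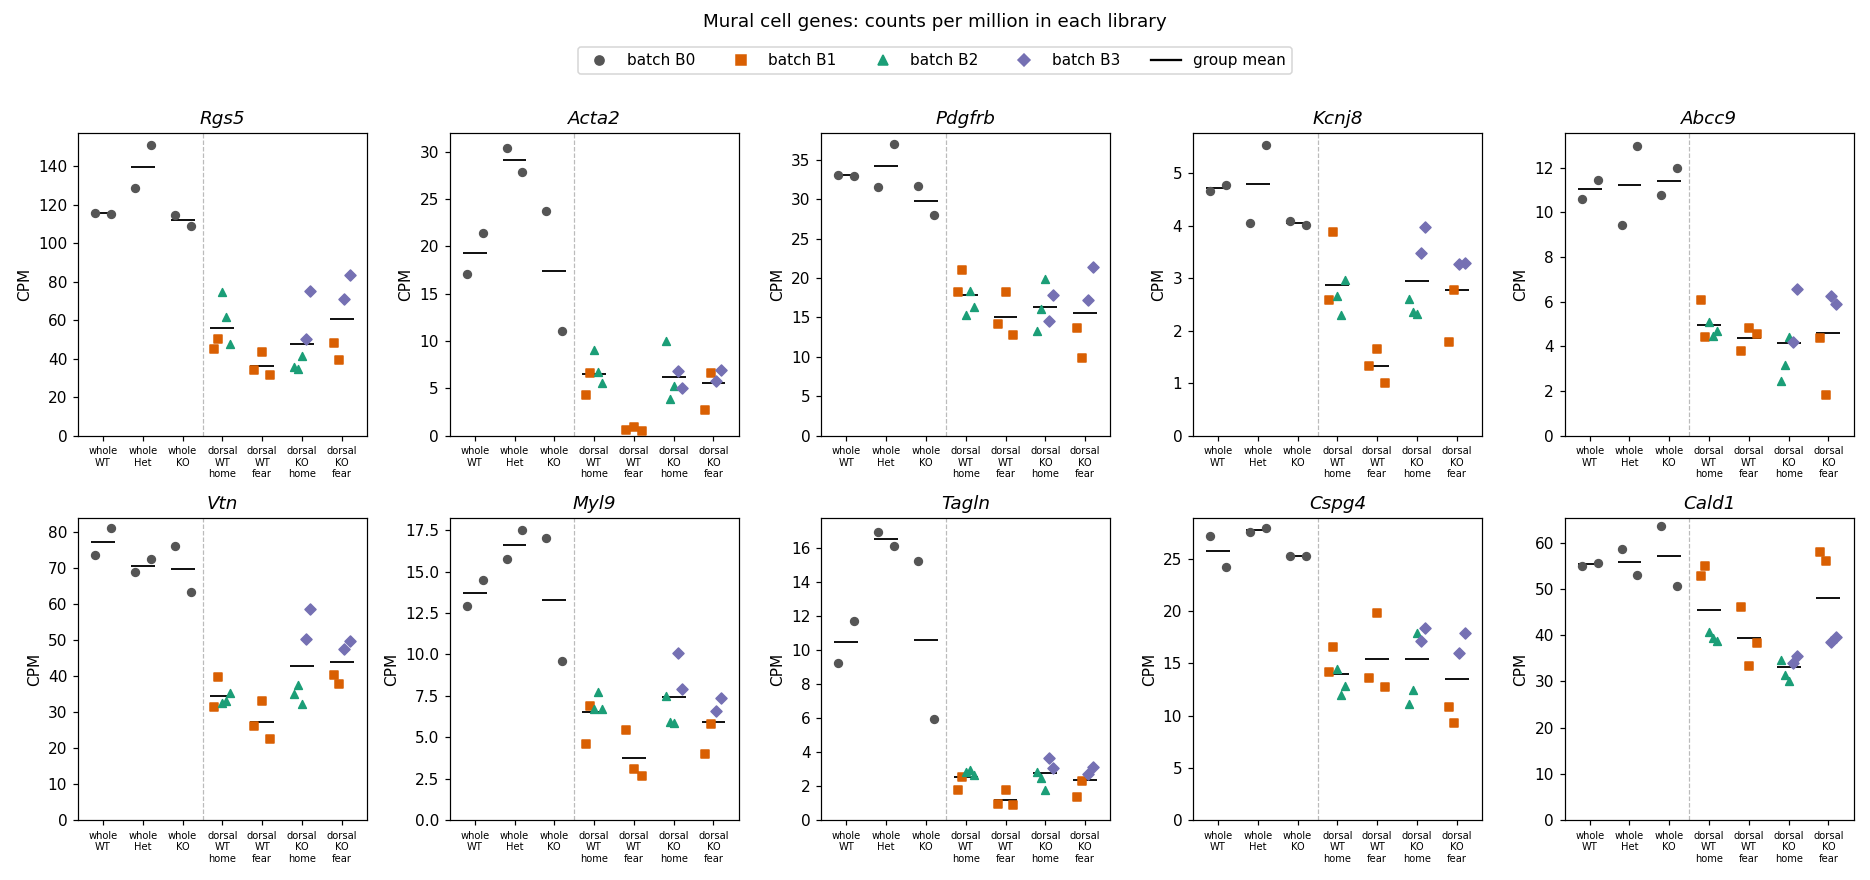
CPM of each mural cell gene in every library, from 0, by group; marker shape and colour give the batch label and the bar gives the group mean. All 3 dorsal WT fear libraries of Acta2 lie between 0.51 and 0.88 CPM, below the other libraries.

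After fear conditioning, WT dorsal hippocampus had lower Acta2, Kcnj8 and Cald1 than WT home cage. That is 3 of 10 members lower and 0 higher by edgeR's quasi-likelihood test, where 1.63% of the 14808 genes tested were called in either direction and 0.756% were called lower. The median log2 difference of the 10 members was -0.48, against -0.02 over all genes tested. Of the 10, 9 lay below 0 and 1 above it, where 47.5% of all genes lay above 0. Overlap between groups is described below gene by gene. The share of all genes without overlap was not computed, so non-overlap of a member is a description only.

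Acta2 showed the widest gap. It read 4.27, 6.65, 9.07, 6.75 and 5.56 CPM in the 5 WT home cage libraries and 0.565, 0.877 and 0.505 CPM in the 3 WT fear libraries. The WT fear libraries held 3, 8 and 4 Acta2 reads. They did not overlap with any other library of either experiment, the next lowest being KO fear replicate 1 at 2.73 CPM. The difference was -2.98 ± 0.54 (adjusted p = 0.0219). Pooled within B1, where both groups are present, WT home cage held 91 reads and WT fear 15, a ratio of 8.04 after scaling (exact 95% interval 4.63 to 14.9, counting error only). Fitted within B1 alone the difference was -2.99 ± 0.40 (SE), with an edgeR adjusted p of 0.051. The call was lost without WT home cage replicate 2 (adjusted p = 0.174), WT fear replicate 2 (0.109) or WT fear replicate 3 (0.122), and it held without each of the other 14 libraries.

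Acta2 is the gene of 10 exon blocks at chr19:34241090-34255590 on the minus strand (mm10, GENCODE M21). Its reads can be shared with the near-identical coding sequences of the other actins, so its level is uncertain to that extent. The other actins did not follow it: Actb differed by -0.10 ± 0.09 (adjusted p = 0.528), Acta1 by 0.23 ± 0.21 (adjusted p = 0.528) and Actg1 by 0.03 ± 0.11 (adjusted p = 0.9). Actc1 and Actg2 did not pass the filter on low counts in the dorsal table.

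Because the contractile genes are textbook targets of serum response factor, the bases before their RefSeq start sites (GRCm38.p6) were read for its element. A strict CArG box, searched on both strands in the 250 bases before the start, was found in Myl9 alone among the 8 members with a window. It was found in 1.47% of 32851 windows of the same length. Pdgfrb and Tagln had no window, so they were not searched. A CArG box with 1 of its central bases other than A or T was found in Acta2 and Myl9, and in 7.24% of all windows. The 2 Acta2 boxes of that kind are shown first, at 84 to 75 and 34 to 25 bases before the start (chr19:34255438-34255467 and chr19:34255388-34255417, both minus strand). Both lie before the RefSeq start but inside the gene as GENCODE annotates it, which begins farther upstream. The Myl9 window (chr2:156775214-156775419, plus strand) follows, trimmed where the GENCODE gene begins, with the strict box at 161 to 152 and the other at 99 to 90 bases before the RefSeq start. Capitals mark the boxes, which overlap no other match.
Acta2, box at 84: gtgctgaggtCCCTATATGGttgtgttaga
Acta2, box at 34: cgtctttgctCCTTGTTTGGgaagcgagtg
Myl9: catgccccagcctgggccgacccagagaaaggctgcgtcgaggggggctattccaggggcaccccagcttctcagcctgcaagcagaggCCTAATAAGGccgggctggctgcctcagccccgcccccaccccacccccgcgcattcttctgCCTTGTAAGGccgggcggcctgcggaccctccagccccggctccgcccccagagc

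These are matches of letters, not measured binding. Acta2 and Myl9 both hold such boxes, and the part of the boxes in their values was not tested. Acta2 was the lowest of the members after fear. Myl9 also lay below 0 but did not pass the test, and the difference between these genes was not tested. Myl9 read 4.61, 6.90, 6.69, 7.76 and 6.69 CPM in WT home cage and 5.46, 3.07 and 2.65 CPM in WT fear. WT fear replicate 1 lay within the home cage range and the other 2 lay below it. The difference was -0.74 ± 0.27 (adjusted p = 0.137), and without that replicate it was -1.03 ± 0.26 with an adjusted p of 0.0359.

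Tagln, the third contractile gene, read 1.80, 2.51, 2.83, 2.94 and 2.65 CPM in WT home cage and 0.941, 1.75 and 0.884 CPM in WT fear. The gene lies at chr9:45929619-45936058 on the minus strand. All 3 WT fear values lay below the 5 home cage values, the nearest pair being 1.75 and 1.80 CPM. The difference was -0.85 ± 0.34 (adjusted p = 0.17). In GENCODE, 62.4% of the Tagln exon bases (1241 of 1988) overlap the antisense gene Gm48529, and 5.43% overlap Pcsk7 on the opposite strand. The library kit does not mark strand, so reads from these genes cannot be told apart, and the counts of Tagln are uncertain.

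Cald1 (chr6:34598500-34775473, plus strand) read 52.9, 55.1, 40.8, 39.4 and 38.8 CPM in WT home cage and 46.1, 33.4 and 38.4 CPM in WT fear. The groups overlap across batches and do not overlap within B1, where the home cage libraries are replicates 1 and 2. The difference was -0.51 ± 0.11 (adjusted p = 0.0423). Pooled within B1, the home cage level was 1.41 times the fear level (exact 95% interval 1.28 to 1.55, counting error only). The value depended on the batch term: without it the difference was -0.21 ± 0.16 (adjusted p = 0.447), and within B1 alone it was -0.45 ± 0.16 (adjusted p = 0.285). The call held in 6 of 17 fits that each left out 1 library, with an adjusted p of 0.241 without WT home cage replicate 2.

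Of the pericyte genes on the list, Kcnj8 alone was called lower. It read 2.58, 3.89, 2.66, 2.29 and 2.96 CPM in WT home cage and 1.32, 1.64 and 1.01 CPM in WT fear, and the groups did not overlap. The difference was -1.22 ± 0.28 (adjusted p = 0.0449), close to the threshold. The WT fear libraries together held 30 reads and the B1 home cage libraries 54, a ratio of 2.38 after scaling (exact 95% interval 1.499 to 3.86). Within B1 alone the difference was -1.25 ± 0.38 (adjusted p = 0.242), and the call held in 5 of 17 fits that each left out 1 library, with an adjusted p of 0.300 without WT home cage replicate 2.

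Abcc9, the partner subunit, did not pass. It read 6.07, 4.39, 5.10, 4.45 and 4.70 CPM in WT home cage and 3.77, 4.82 and 4.55 CPM in WT fear, and the groups overlapped. The difference was -0.15 ± 0.30 (adjusted p = 0.792). The genes are neighbours on chromosome 6, with 16247 bases between them (Kcnj8 at chr6:142564837-142571614 and Abcc9 at chr6:142587862-142702315, both minus strand). The subunits of the other channel of this kind, which is typical of neurons and islet cells, differed by 0.32 ± 0.14 (adjusted p = 0.214) for the pore Kcnj11 and by 0.14 ± 0.24 (adjusted p = 0.751) for its regulator Abcc8.

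The windows before the starts of Kcnj8 (chr6:142571615-142571864, minus strand) and Cald1 (chr6:34598254-34598499, plus strand) are shown as those of the other members that fell. Kcnj8 holds neither kind of CArG box, an MCAT element (CATTCC on either strand) nor an RBPJ site (GTGGGAA on either strand) here. Cald1 holds 1 MCAT element, in capitals, read on the reverse strand. The MCAT element was in 12.6% of all windows and in 4 of the 8 members with a window, namely Abcc9, Acta2, Cald1 and Vtn. The RBPJ site was in 5.42% of all windows and in 0 of the 8. That says only that these letters are not in these windows.
Kcnj8: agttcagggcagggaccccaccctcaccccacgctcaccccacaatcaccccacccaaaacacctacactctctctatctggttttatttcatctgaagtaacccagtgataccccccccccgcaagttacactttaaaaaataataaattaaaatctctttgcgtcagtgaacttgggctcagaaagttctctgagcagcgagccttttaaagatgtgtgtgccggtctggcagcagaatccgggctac
Cald1: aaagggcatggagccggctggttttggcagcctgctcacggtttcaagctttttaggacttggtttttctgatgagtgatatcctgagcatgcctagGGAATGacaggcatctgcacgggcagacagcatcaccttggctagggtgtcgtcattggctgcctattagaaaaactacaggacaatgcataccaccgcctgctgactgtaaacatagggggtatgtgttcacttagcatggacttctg

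The remaining pericyte genes, Rgs5 (chr1:169655501-169695813), Vtn (chr11:78499091-78502324), Pdgfrb (chr18:61045150-61085061) and Cspg4 (chr9:56865033-56899870), all on the plus strand, did not pass the test in WT. Rgs5 read 45.04, 49.9, 74.7, 61.5 and 47.8 CPM in WT home cage and 33.9, 43.5 and 31.3 CPM in WT fear. The groups did not overlap, the nearest pair being WT fear replicate 2 and home cage replicate 1, and the difference was -0.44 ± 0.19 (adjusted p = 0.205). Vtn read 31.4, 39.7, 32.5, 33.05 and 35.3 CPM in home cage and 25.98, 32.9 and 22.6 CPM after fear, with WT fear replicate 2 inside the home cage range, and differed by -0.43 ± 0.14 (adjusted p = 0.108).

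Pdgfrb read 18.2, 20.96, 15.3, 18.3 and 16.3 CPM in WT home cage and 14.1, 18.2 and 12.8 CPM in WT fear, and differed by -0.19 ± 0.23 (adjusted p = 0.648). Cspg4 read 14.2, 16.6, 14.5, 11.9 and 12.8 CPM and 13.6, 19.8 and 12.8 CPM in the same groups. It was the only member above 0, at 0.14 ± 0.21 (adjusted p = 0.72), and its B1 home cage to fear ratio was 0.966 (exact 95% interval 0.819 to 1.14). Both genes overlapped between the groups.

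**Figure D3:**
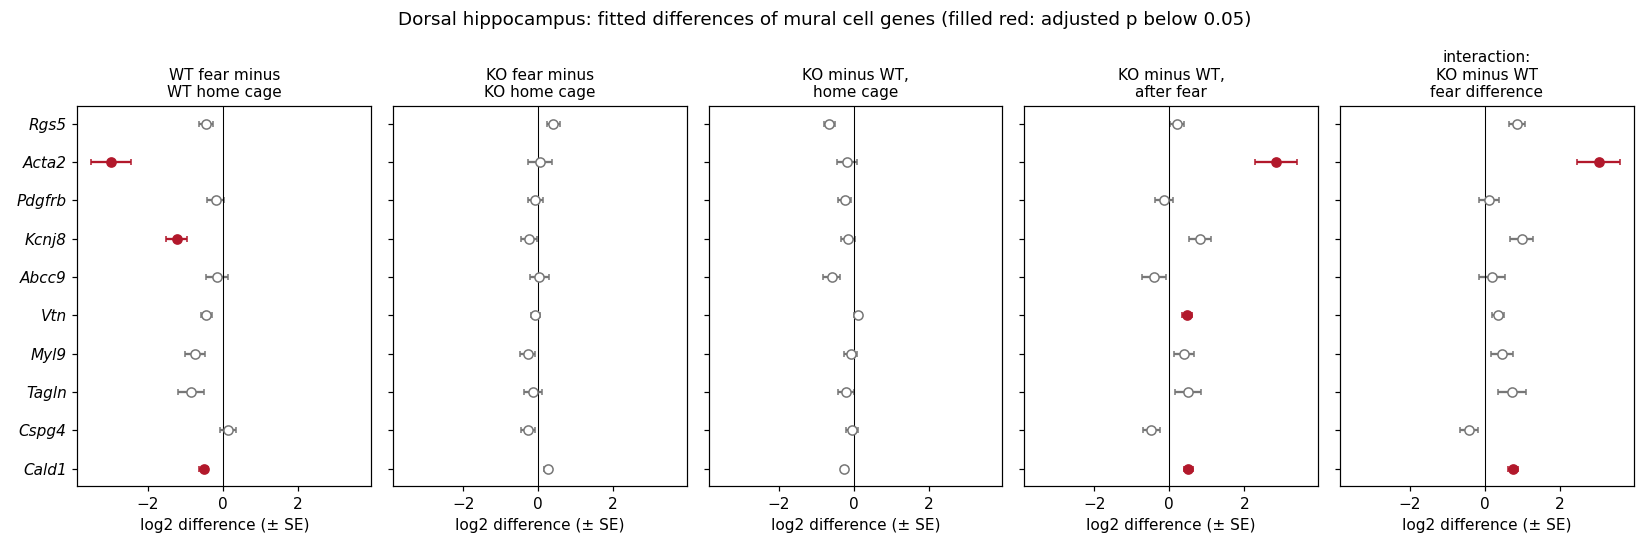
Fitted log2 difference of each mural cell gene, with its SE, in the 4 dorsal comparisons and in their interaction; filled red points passed an adjusted p of 0.05 in edgeR. Acta2 is at -2.98 in WT after fear, 0.05 in KO after fear and 3.03 for the interaction.

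Further genes of pericytes and smooth muscle were looked at in the same comparison. Of 20 other pericyte genes, 0 passed the test (2 at an unadjusted p under 0.05), with a median log2 difference of -0.25. Mcam, an adhesion molecule of mural and endothelial cells, was at -0.99 ± 0.28 (adjusted p = 0.0741), the ectoenzyme gene Art3 at -0.79 ± 0.25 (adjusted p = 0.0952), and Atp13a5 at -0.46 ± 0.25 (adjusted p = 0.305). Of 20 other smooth muscle genes 13 passed the filter and 1 of the 13 was lower, with a median of -0.72 and 12 of 13 below 0. The 1 was Mylk, the kinase of the myosin light chain, at -1.15 ± 0.24 (adjusted p = 0.0339). Sncg was at -1.79 ± 0.51 (adjusted p = 0.0735) and Ppp1r14a, an inhibitor of myosin phosphatase, at -1.24 ± 0.37 (adjusted p = 0.0805).

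Upstream of these genes, 0 of 13 genes of platelet-derived growth factor and Notch signalling passed in WT (0 at an unadjusted p under 0.05), with a median of -0.10. Of 11 tested genes of the serum response factor group, 1 was higher, the factor Srf itself, at 0.47 ± 0.11 (adjusted p = 0.0454). The cytoskeletal genes Csrp1 and Vcl were at -0.62 ± 0.18 (adjusted p = 0.0791) and 0.51 ± 0.16 (adjusted p = 0.0993).

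**Figure D4:**
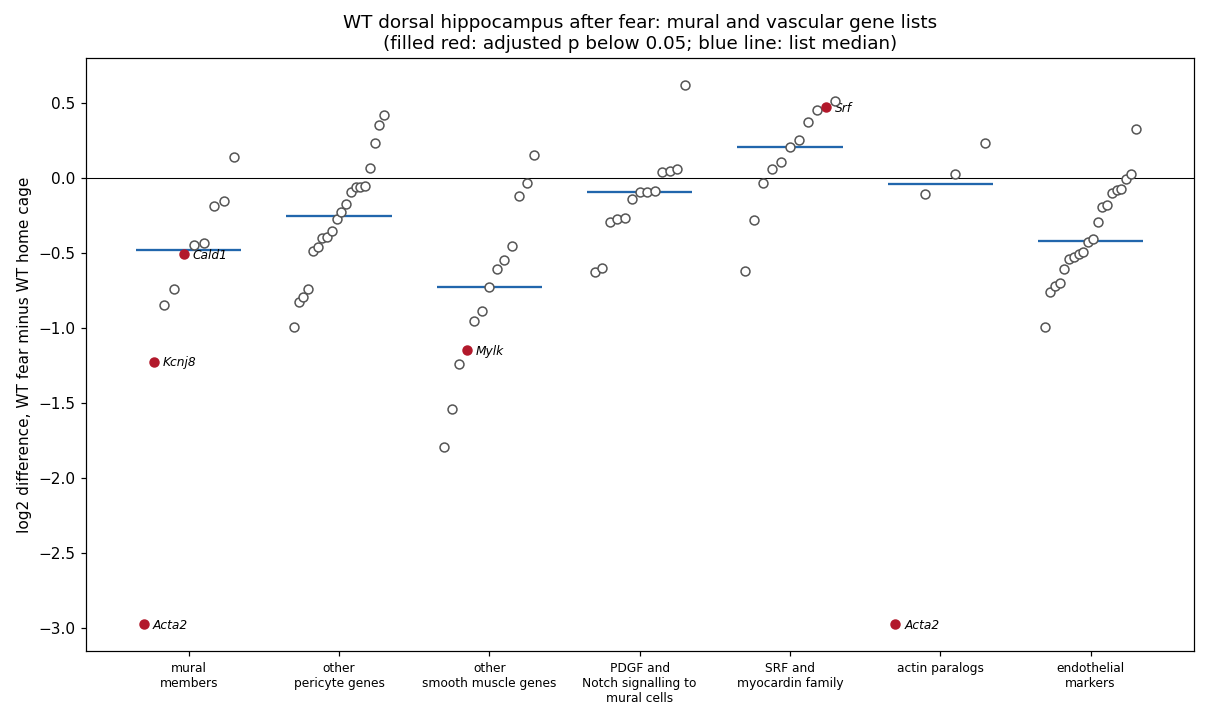
Log2 difference between WT fear and WT home cage for each tested gene of 7 lists; filled red points passed an adjusted p of 0.05 in edgeR, and the blue line is the list median. Acta2 stands lowest at -2.98, and the medians of the other smooth muscle genes and of the endothelial markers are -0.72 and -0.42.

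Markers of other cells moved in the same libraries. Endothelial markers, the nearest neighbours of mural cells, had a median of -0.42 with 0 of 20 called (6 at an unadjusted p under 0.05), and their summed level was 206 to 235 CPM in WT fear against 242 to 353 CPM in WT home cage. Oligodendrocyte markers were lower for 9 of 12, with summed levels of 4087 to 5469 CPM against 7038.5 to 14078 CPM. Ependymal markers were lower for 5 of 10, with a median of -3.55 and summed levels of 8.08 to 11.5 CPM against 42.8 to 113 CPM. Among the ependymal markers, Tmem212 and Dynlrb2 each had 0 reads in 1 of the 3 WT fear libraries and Spag17 in 2 of 3. Choroid plexus markers were lower for 1 of 12, with summed levels of 54.2 to 155 CPM against 160 to 216 CPM. The summed level of the 10 mural members was 127 to 160 CPM in WT fear and 174 to 207 CPM in WT home cage. Neuron markers had a median of 0.10 with 0 of 10 called (1 at an unadjusted p under 0.05). The part of these other cells in the mural values was not tested.

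**Figure D5:**
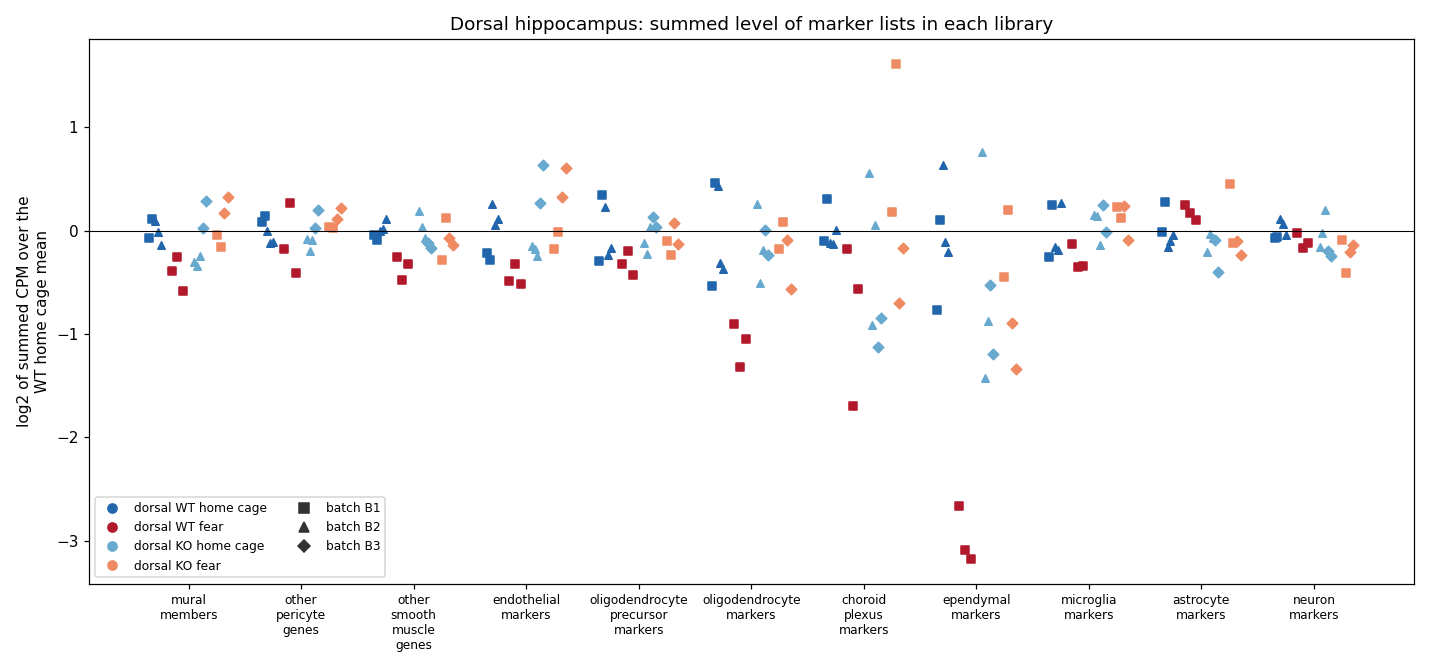
Summed CPM of each marker list in every dorsal library, as log2 of its ratio to the WT home cage mean of that list; colour gives the group and shape the batch label. The 3 WT fear libraries are lowest for ependymal markers, at 8.08 to 11.5 CPM, and below the WT home cage range for the mural members, at 127 to 160 CPM.

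In KO mice the same comparison called 0 of 10 members (2 at an unadjusted p under 0.05, 0 by DESeq2). It called 0% of the 14808 genes tested in edgeR, with 714 at an unadjusted p under 0.05, and 6 genes in DESeq2. Acta2 read 10.001, 3.92, 5.19, 6.77 and 5.08 CPM in the 5 KO home cage libraries and 2.73, 6.62, 5.75 and 6.90 CPM in the 4 KO fear libraries, and the groups overlapped. The difference was 0.05 ± 0.31 (adjusted p = 0.995), and within B3 it was 0.09 ± 0.21.

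Kcnj8 read 2.61, 2.35, 2.32, 3.49 and 3.98 CPM in KO home cage and 1.78, 2.77, 3.28 and 3.30 CPM in KO fear, a difference of -0.24 ± 0.20 (adjusted p = 0.968). Cald1 read 34.7, 31.5, 30.2, 34.1 and 35.4 CPM and 58.1, 56.1, 38.6 and 39.7 CPM, a difference of 0.25 ± 0.10 (adjusted p = 0.968). For Cald1 each KO fear library lay above each KO home cage library, but its B1 libraries, KO fear replicates 1 and 2, stood at 58.1 and 56.1 CPM against 38.6 and 39.7 CPM in B3. Within B3 the Cald1 difference was 0.16 ± 0.10.

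Rgs5 was the other KO member at an unadjusted p under 0.05. It read 35.4, 34.7, 41.3, 50.1 and 75.3 CPM in KO home cage and 48.1, 39.02, 70.8 and 83.5 CPM in KO fear, with overlap. The higher values in both groups belonged to B3, and the difference was 0.40 ± 0.17 (adjusted p = 0.968). The other 6 members differed by between -0.28 for Cspg4 and 0.03 for Abcc9.

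Of the other contractile genes in KO mice, Myl9 and Tagln overlapped between the groups. Myl9 read 7.49, 5.92, 5.88, 10.1 and 7.91 CPM in KO home cage and 3.96, 5.78, 6.61 and 7.36 CPM in KO fear, and Tagln 2.81, 2.45, 1.78, 3.63 and 3.09 CPM and 1.37, 2.29, 2.69 and 3.15 CPM. KO fear replicate 1, a B1 library, was the lowest of the 9 KO libraries for Acta2, Myl9 and Tagln alike. It was also the lowest for Kcnj8.

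Among the pericyte genes Vtn read 35.03, 37.6, 32.3, 50.4 and 58.7 CPM in KO home cage and 40.3, 37.7, 47.4 and 49.7 CPM in KO fear. Pdgfrb read 13.3, 16.1, 19.9, 14.5 and 17.9 CPM and 13.7, 9.88, 17.2 and 21.4 CPM in the same groups. KO fear replicate 2 was the lowest KO library for Pdgfrb, and also for Cspg4 and Abcc9. Cspg4 read 11.1, 12.5, 17.9, 17.1 and 18.4 CPM in KO home cage and 10.8, 9.27, 15.97 and 17.9 CPM in KO fear, and Abcc9 2.46, 3.18, 4.42, 4.19 and 6.56 CPM and 4.37, 1.81, 6.24 and 5.89 CPM. All 4 overlapped between the groups.

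In the home cage, KO and WT dorsal hippocampus differed in 0 of 10 members (3 at an unadjusted p under 0.05, 0 by DESeq2). Over all genes 0.00675% were called, with 1674 genes at an unadjusted p under 0.05 and 2 genes by DESeq2. Rgs5 was 35.4, 34.7, 41.3, 50.1 and 75.3 CPM in KO against 45.04, 49.9, 74.7, 61.5 and 47.8 CPM in WT, with overlap, and the difference was -0.65 ± 0.15 (adjusted p = 0.44). It passed only without KO home cage replicate 3, at -0.69 ± 0.16 and an adjusted p of 0.0408.

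Abcc9 was 2.46, 3.18, 4.42, 4.19 and 6.56 CPM in KO against 6.07, 4.39, 5.10, 4.45 and 4.70 CPM in WT. KO replicates 1, 2 and 4 lay below the WT range and replicate 5 above it, and the difference was -0.59 ± 0.22 (adjusted p = 0.44). Cald1 was lower in each KO home cage library, at 30.2 to 35.4 CPM, than in each WT home cage library, at 38.8 to 55.1 CPM, and differed by -0.25 ± 0.09 (adjusted p = 0.44). Endothelial markers moved with Rgs5 here, with a median of -0.39 and 18 of 20 below 0, and 0 of them passed (9 at an unadjusted p under 0.05). Their part in the Rgs5 value was not tested.

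After fear, KO mice had higher Acta2, Vtn and Cald1 than WT mice. That is 3 of 10 members, where 22.3% of all genes were called and 10.2% were called higher. The members' count has to be read against that background, and this comparison uses the same WT fear libraries as the WT comparison above. Acta2 was 2.73, 6.62, 5.75 and 6.90 CPM in KO and 0.565, 0.877 and 0.505 CPM in WT, without overlap, and the difference was 2.84 ± 0.55 (adjusted p = 0.0155). Within B1 it was 2.81 ± 0.48 (adjusted p = 0.00798). The call was lost without WT fear replicate 2 (0.0713), WT fear replicate 3 (0.0656) or KO fear replicate 2 (0.11).

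Vtn was 40.3, 37.7, 47.4 and 49.7 CPM in KO and 25.98, 32.9 and 22.6 CPM in WT, also without overlap. Its difference was 0.47 ± 0.14 (adjusted p = 0.0293), and within B1 0.53 ± 0.18 (adjusted p = 0.0626). The Vtn call was lost without WT fear replicate 1 (0.0562), 2 (0.0713) or 3 (0.134) and without KO fear replicate 1 (0.0946) or 2 (0.119). Cald1 was 58.1, 56.1, 38.6 and 39.7 CPM in KO and 46.1, 33.4 and 38.4 CPM in WT, with overlap across batches and none within B1. It differed by 0.51 ± 0.11 (adjusted p = 0.0155), by 0.56 ± 0.17 within B1 (adjusted p = 0.0417) and by 0.29 ± 0.17 without the batch term (adjusted p = 0.249). The Cald1 call was lost without WT fear replicate 2 (0.0726), WT fear replicate 3 (0.0679) or KO fear replicate 2 (0.11).

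Kcnj8 just missed the threshold, at 0.82 ± 0.29 (adjusted p = 0.0527), with 1.78, 2.77, 3.28 and 3.30 CPM in KO against 1.32, 1.64 and 1.01 CPM in WT and no overlap. Cspg4, at -0.48 ± 0.22 (adjusted p = 0.125), was the lowest of the 10. Among the other genes of the same cells, 1 of 20 pericyte genes was higher, Art3 at 0.76 ± 0.25 (adjusted p = 0.0404). Of 13 tested smooth muscle genes 3 were higher: Mylk at 1.08 ± 0.24 (adjusted p = 0.0155), Ppp1r14a at 1.54 ± 0.36 (adjusted p = 0.0162) and Sncg at 1.63 ± 0.52 (adjusted p = 0.0355). Of the channel subunits outside the list, Kcnj11 was lower at -0.65 ± 0.15 (adjusted p = 0.0155). Of 13 growth factor and Notch genes 1 was higher, the ligand Pdgfa at 0.56 ± 0.16 (adjusted p = 0.0236). Of 11 genes of the serum response factor group 2 were higher and 4 lower, among them the cofactors Mrtfb at -0.79 ± 0.19 (adjusted p = 0.0178) and Mrtfa at -0.74 ± 0.19 (adjusted p = 0.0203), and Vcl at -0.64 ± 0.17 (adjusted p = 0.0191). Ependymal markers were higher for 10 of 10 and oligodendrocyte markers for 9 of 12 in the same comparison. Their part in the mural values was not tested.

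The response to fear itself differed between the genotypes for 2 of 10 members, by the interaction of genotype and fear. The interaction called 0.479% of all genes in either direction and 0.196% as higher in KO. For Acta2 the KO fear difference exceeded the WT fear difference by 3.03 ± 0.58 (adjusted p = 0.0406), and for Cald1 by 0.76 ± 0.13 (adjusted p = 0.0406). No batch held every dorsal group, so the interaction could not be fitted within a batch. It rests on batch terms taken as equal in all groups. Without the batch term neither gene passed in edgeR. Acta2 was then at 3.13 ± 0.55 (adjusted p = 0.112) and Cald1 at 0.73 ± 0.22 (adjusted p = 0.234). Ependymal markers had an interaction median of 3.66 with 4 of 10 called and 10 of 10 above 0, and oligodendrocyte markers a median of 1.08 with 0 of 12 called (12 at an unadjusted p under 0.05). Endothelial markers had a median of 0.49 with 0 of 20 called (9 at an unadjusted p under 0.05). The part of these cells in the mural interaction was not tested. The Acta2 and Cald1 interactions each passed in 4 of 17 fits that left out 1 library. Leaving out WT fear replicate 2 gave an adjusted p of 0.186 for both, which is the highest of the 17. Rgs5 was next at 0.85 ± 0.22 (adjusted p = 0.0661), and it passed with no filter on low counts (adjusted p = 0.03) and in DESeq2 (0.0139). Kcnj8 was at 0.98 ± 0.31 (adjusted p = 0.103). Tagln, Myl9, Vtn, Abcc9 and Pdgfrb lay between 0.11 and 0.72, and Cspg4 was at -0.42 ± 0.25 (adjusted p = 0.311). Of 13 other smooth muscle genes 1 was called, Mylk at 1.29 ± 0.27 (adjusted p = 0.0472), and of 20 other pericyte genes 0 (2 at an unadjusted p under 0.05).

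Loss of Acss2 gave no call among the members in whole hippocampus. KO against WT called 0 of 10 members (0 at an unadjusted p under 0.05, 0 by DESeq2). It called 0.0388% of the 15453 genes tested in edgeR, with 941 at an unadjusted p under 0.05, and 19 genes in DESeq2. The members' log2 differences ran from -0.22 for Kcnj8 to 0.05 for Abcc9 and Cald1, with a median of -0.04.

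The contractile genes split the KO pair. Acta2 was 17.1 and 21.4 CPM in WT and 23.8 and 11.04 CPM in KO, a difference of -0.14 ± 0.32 (adjusted p = 0.965). Tagln was 9.24 and 11.7 CPM in WT and 15.2 and 5.93 CPM in KO, and Myl9 12.9 and 14.5 CPM and 17.003 and 9.62 CPM. For each of the 3 genes KO replicate 1 lay above both WT libraries and KO replicate 2 below both. The same libraries differed in markers of tissue bordering the hippocampus. Choroid plexus markers summed to 4247 CPM in KO replicate 1 and 40.4 CPM in replicate 2, and markers of fibroblasts and meninges to 489 and 171 CPM. Replicates 1 and 2 of WT held 42.9 and 2684 CPM of the choroid plexus markers and 209 and 354 CPM of the fibroblast and meningeal ones. The part of that tissue in the mural values was not tested. The pericyte genes were closer: Rgs5 was 116 and 115 CPM in WT and 115 and 109 CPM in KO, a difference of -0.04 ± 0.08 (adjusted p = 0.957). Pdgfrb was 33.1 and 32.97 CPM in WT and 31.6 and 27.95 CPM in KO, and Cspg4 27.2 and 24.3 CPM and 25.3 and 25.3 CPM. For Pdgfrb both KO libraries lay below both WT libraries, and for Cspg4 they lay between them. Kcnj8 was 4.67 and 4.79 CPM in WT and 4.09 and 4.01 CPM in KO, without overlap but with a difference of -0.22 ± 0.18 (adjusted p = 0.882). Vtn was 73.4 and 80.9 CPM in WT and 76.04 and 63.2 CPM in KO, Abcc9 10.6 and 11.4 CPM and 10.8 and 11.99 CPM, and Cald1 55.1 and 55.7 CPM and 63.7 and 50.8 CPM, and each overlapped.

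With 1 copy of Acss2, 9 of 10 members lay above 0, where 50.3% of all genes did, and none was called. Their median log2 difference was 0.08, against 0.001 over all genes. Oligodendrocyte markers lay above 0 for 12 of 12, other smooth muscle genes for 16 of 18 and endothelial markers for 15 of 20. Neuron markers did for 5 of 10 and choroid plexus markers for 0 of 12. The part of other cells in the mural values was not tested. Het against WT called 0 of 10 members (1 at an unadjusted p under 0.05, 0 by DESeq2). It called 0% of all genes in edgeR, with 2145 at an unadjusted p under 0.05, and 147 genes in DESeq2. Rgs5 was 129 and 151 CPM in Het, above both WT libraries, and differed from WT by 0.28 ± 0.08 (adjusted p = 0.296). Acta2 was 30.4 and 27.8 CPM in Het and Tagln 16.99 and 16.1 CPM, each above both WT libraries. They differed by 0.59 ± 0.32 (adjusted p = 0.442) and by 0.66 ± 0.39 (adjusted p = 0.479). Myl9 was 15.8 and 17.5 CPM in Het, also above both WT libraries, and differed by 0.28 ± 0.25 (adjusted p = 0.632). Pdgfrb was 31.5 and 36.97, Kcnj8 4.05 and 5.54, Abcc9 9.43 and 12.97, Vtn 68.7 and 72.3, Cspg4 27.6 and 27.98 and Cald1 58.6 and 52.99 CPM in the Het libraries. Both Het libraries lay below both WT libraries for Vtn and above both for Cspg4. Over all genes the share placed on 1 side in this way was not computed for either experiment, so such placements of the members are descriptions only. Without Het replicate 1, which leaves 1 Het library assumed to vary like the others, Rgs5 passed at 0.39 ± 0.05 with an adjusted p of 0.0107.

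KO against Het, which uses the same Het and KO libraries, called 0 of 10 members (1 at an unadjusted p under 0.05, 0 by DESeq2). It called 0.0841% of all genes in edgeR, with 2038 at an unadjusted p under 0.05, and 137 genes in DESeq2. Rgs5 differed by -0.32 ± 0.08 (adjusted p = 0.258), and without Het replicate 1 by -0.43 ± 0.05 with an adjusted p of 0.00789. Acta2 differed by -0.73 ± 0.32 (adjusted p = 0.39). Of the 20 other pericyte genes 0 passed (4 at an unadjusted p under 0.05), the lowest p being that of Heyl, a Notch target, at -0.90 ± 0.18 (adjusted p = 0.217).

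Across the 17 dorsal libraries the members did not vary as 1 block. Of 45 pairs 33 had a Pearson r above 0, the median r was 0.342, and r ran from -0.45 to 0.885. Cald1, a called gene, had an r below 0 with each other member, from -0.0035 with Rgs5 to -0.45 with Cspg4. None of these passed, the lowest adjusted permutation p being 0.154. Within B1 Cald1 had an r above 0 with Acta2 (0.791), Myl9 (0.731), Kcnj8 (0.645), Vtn (0.62), Rgs5 (0.466) and Tagln (0.419). It lay below 0 there with Pdgfrb (-0.15), Abcc9 (-0.301) and Cspg4 (-0.603). Within B2 it was above 0 with Rgs5 (0.81), Tagln (0.805), Myl9 (0.672), Acta2 (0.557), Kcnj8 (0.521) and Abcc9 (0.464). There it was below 0 with Pdgfrb (-0.251), Vtn (-0.275) and Cspg4 (-0.375). An r below 0 in both batches was seen only with Pdgfrb and Cspg4. Myl9 and Tagln rose and fell together, with r = 0.821 (adjusted permutation p = 0.00135) and rho = 0.934 (adjusted permutation p = 0.00045). Without the 2 libraries farthest from the median of Myl9 the value was 0.803, within B1 it was 0.563 and within B2 0.781. Pdgfrb and Cspg4 had r = 0.747 (adjusted permutation p = 0.00315) and rho = 0.662 (adjusted permutation p = 0.0236), with 0.598 without 2 libraries, 0.861 within B1 and 0.659 within B2. The channel partners Kcnj8 and Abcc9 had r = 0.16 (permutation p = 0.535, adjusted 0.688) and rho = 0.26 (adjusted permutation p = 0.519), with -0.182 within B1 and 0.144 within B2. The highest r, 0.885, was that of Kcnj8 with the contractile gene Tagln (adjusted permutation p = 0.0009), with 0.934 within B1 and 0.371 within B2. Over the 14 libraries other than WT fear it was 0.689 (adjusted permutation p = 0.0418). With the pericyte genes Vtn and Pdgfrb, Kcnj8 had r = 0.819 and 0.369 over the 17 libraries.

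Acta2 separated the WT fear libraries from the rest, so its pairs were read over the other 14 libraries. There Acta2 had r = 0.697 with Tagln (adjusted permutation p = 0.0418), with rho = 0.662 (adjusted permutation p = 0.108), and r = 0.689 with Myl9 (adjusted permutation p = 0.0421), with rho = 0.626 (adjusted permutation p = 0.125). All adjusted values are over the 45 pairs. The libraries share batches and differ in depth, which enters each pair. The permutations moved libraries freely across batches and groups. The permutation p-values therefore include shifts between batches and groups, and they are descriptive.

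The genes most like Acta2 across the 17 dorsal libraries, with the members left out and 14798 genes ranked by Pearson r of log2 CPM, were Tmem212 (r = 0.947), Tctex1d4 (0.931), Dynlrb2 (0.928), Plin5 (0.926) and Tnni1 (0.925), of which Tmem212 and Dynlrb2 are in the list of ependymal markers. Over the 14 libraries other than WT fear these values were 0.755, 0.611, 0.821, 0.683 and 0.73. Tmem212 ran from 0 to 12.4 CPM and Dynlrb2 from 0 to 7.59 CPM. The genes most like Rgs5 were Abcb1a (0.949), Pecam1 (0.924), Tek (0.904), Ptprb (0.896) and Adgrf5 (0.894), all known from brain endothelium, and over the same 14 libraries the values were 0.932, 0.906, 0.869, 0.872 and 0.879. These genes were picked from all genes for their likeness, so the values are descriptions without a p.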

How the data were processed

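RNA sequencing libraries of polyadenylated RNA, 6 from whole and 17 from dorsal hippocampus, were analysed. The unit is raw counts by gene symbol, which the authors deposited as 1 table per experiment. Per the submitters' processing notes, the build was mm10 and the tools were HTSeq 0.9.1, SAMtools 1.1, STAR, limma and DESeq2, with no role or order. The gene annotation is not given in sources used here. Normalized tables of the authors were not used.

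Tests used edgeR 4.0.16 in R 4.3.3 (quasi-likelihood F test, TMM factors, filterByExpr at 10 counts and 15 in total), Benjamini-Hochberg adjusted over all genes tested, two-sided, at 0.05. Whole hippocampus was fitted on 6 libraries by genotype (3 residual degrees of freedom, 15453 genes) and dorsal hippocampus on 17 libraries by group and batch (11 residual degrees of freedom, 14808 genes). The interaction subtracts the WT response to fear from the KO response. Differences are log2, given with ± an approximate standard error, which is the log2 difference divided by the square root of F. Levels per kilobase use the union of GENCODE M21 exons. Correlations used log2 CPM with a prior count of 2 and 100000 permutations. Intervals on pooled reads are at 95% and cover counting error only, because PCR copies are not independent molecules.

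Pairs of libraries within a group differed by a chi-square of 6.1 to 62.1 per gene over 32 pairs, so none was a copy of another. Each library was counted as 1 replicate, though the labels do not say whether libraries share an animal. The fit was tested on simulated data. DESeq2 1.42.0, other scaling factors, no filter, a replicate block, fits on fewer libraries and each library left out were tried. The members and lists were chosen with earlier results of these data known. Named were all members, up to 3 genes of each other list per comparison with the smallest p, all subunits of the ATP-sensitive channels, all actins, and the 5 genes most like Acta2 and Rgs5.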

Additional observations from a re-analysis of the deposited data

Results flagged for a closer look

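The response to fear differed between the genotypes for 2 members by the interaction of genotype and fear (edgeR's quasi-likelihood test). For Acta2, the KO difference less the WT difference was 3.03 ± 0.58 on the log2 scale (adjusted p = 0.0406): each of the 3 WT fear libraries lay below each of the 5 WT home cage libraries, and the KO groups overlapped. For Cald1 the same difference was 0.76 ± 0.13 (adjusted p = 0.0406), with -0.51 in WT and 0.25 in KO. No batch held every dorsal group, so both values rest on the batch term. Without that term neither passed in edgeR (adjusted p = 0.112 for Acta2 and 0.234 for Cald1). In the same interaction the ependymal markers had a median of 3.66 with 4 of 10 called, and the oligodendrocyte markers a median of 1.08 with 0 of 12 called (12 at an unadjusted p under 0.05); their part in the Acta2 and Cald1 values was not tested. Each of the 30 sets of 1 gene in 1 group of 4 or 5 libraries was checked for a library standing apart from its group, and 0 had one. The WT fear group, with 3 libraries, was too small for this check and was left out.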

How the results depend on the processing

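Of 1540 recomputed member differences 1475 kept their sign, and 0 differences past the threshold reversed. The 8 calls were past it in 107 of 188 alternatives. In WT after fear, 3 members were called; 0 were called within B1 and 1, Acta2, with only the 2 groups fitted. Without the batch term the interaction called 0 in place of 2. Leaving out 1 library gave 0 to 4 members in WT after fear, 0 to 4 for KO against WT after fear, 0 to 3 for the interaction, and 0 to 1 for KO against WT in the home cage, Het against WT and KO against Het in whole hippocampus. DESeq2 called 938 genes in WT after fear where edgeR called 241, and 904 where edgeR called 71 for the interaction, with 3 members in each. The median r over member pairs, 0.342, was 0.345 without 2 libraries, 0.466 within B1 and 0.152 within B2. The causes were not tested.

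With the replicate number as a block, 0 members were called in WT after fear, in KO against WT after fear and for the interaction, where 15, 1 and 0 genes were called in all; the block changed no other count of members. Dorsal numbers gave no sign of pairing: 1 of 15 same-numbered pairs had a correlation of deviations above 0.1. The same number correlated best in 5 of 44 sets. The deviations were taken after fitting group and batch, which lowers the correlation of libraries that share a batch. The check therefore cannot exclude a pairing, and the loss of the calls under the block stands as a limit. In whole hippocampus the correlation was -0.678 for KO with WT, and with the KO numbers exchanged, chosen after seeing the data, the pairing called 8, 1 and 24 genes for KO against WT, Het against WT and KO against Het, and 0 members. Depth limits Acta2, Kcnj8 and Tagln most: the WT fear libraries together held 15, 30 and 28 reads of them.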
